A study of Mus musculus with 6 samples.

Results

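Osteopontin, the secreted phosphoprotein encoded by Spp1, and 9 genes of its receptors were followed in mouse melanoma cells with and without a knockout of Spp1. The 10 genes were chosen by name: Spp1, Cd44, the integrin alpha subunits Itgav, Itga4, Itga5, Itga8 and Itga9, and the integrin beta subunits Itgb1, Itgb3 and Itgb5. All 10 were among the 19213 genes of the deposited table, and all 10 were among the 15307 genes that passed the filter on low values. Spp1 passed it through the control libraries only.

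PolyA RNA was sequenced from 3 samples of cells with the Spp1 Knockout genotype, made with CRISPR-Cas9, and from 3 Non-targeting control samples. Every sample carries the cell type label melanoma cells and the same batch label, and the samples of a group are called biological replicates. The labels do not say whether the knockout cells are 1 clone, several clones or a pool, nor whether replicates came from separate cultures, so the spread behind every p-value is that between these 6 libraries and may be technical. The cell line label is B16F13, B16F14 and B16F15 in knockout 1 to 3 and B16F10, B16F11 and B16F12 in control 1 to 3. B16F10 is a metastatic mouse melanoma line. If the other labels name other cells, that difference and the knockout cannot be told apart. In bulk RNA, fewer cells of a type and less RNA per cell cannot be told apart.

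Osteopontin is made by bone cells, macrophages and many tumours, and acts both in the matrix and as a soluble cytokine. Integrins are receptors made of 1 alpha and 1 beta subunit that link the matrix to the actin cytoskeleton. Osteopontin is bound through its RGD motif by integrins with the alpha v, alpha 5 or alpha 8 subunit, and through a neighbouring site, exposed by thrombin, by integrins with alpha 4 or alpha 9 paired with beta 1. CD44, better known as the receptor for hyaluronan, has been described as a further osteopontin receptor.

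The receptor-binding stretch of Spp1 is shown because the 5 alpha subunits are grouped by the site in it that they bind. The 60 bases were read from the GENCODE M21 transcripts of Spp1 and lie in exon 6 of 7, on the plus strand of mm10 at chr5:104439460-104439519. The capitals mark the codons of the RGD motif, which start at codon 144 of 294. The bases after the capitals encode the site for alpha 4 and alpha 9.
Spp1 coding stretch: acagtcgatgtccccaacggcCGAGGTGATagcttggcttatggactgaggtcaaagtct

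Taking the smallest value of each column as 1 read, the listed genes held 75438190 to 80206796 reads per library in the knockout group. In the control group they held 72717465 to 94314770. This recovery of reads was not accepted for knockout 2. Values are reads per gene divided by 1 size factor per library, called scaled reads below. Across genes, which are not independent replicates, log2 values of libraries within a group had r = 0.996 to 0.997. The melanocyte markers Mitf, Sox10, Tyr, Tyrp1, Dct, Pmel and Mlana were all listed, with summed levels of 1059657 to 1070434 scaled reads in knockout and 898571 to 914819 in control. Tyrp1, Dct, Pmel and Mlana rose, Tyr fell (log2 change -0.55, limma adjusted p = 1.41e-09), and Mitf and Sox10 did not pass. The rise of Mlana was small (log2 change 0.09 ± 0.03, SE, limma adjusted p = 0.0111). Of these rises only that of Dct held against a 1.2-fold change. The knockout and control libraries differed widely, with 63.0% of tested genes past the threshold (limma, Benjamini-Hochberg adjusted p under 0.05), 34.4% higher and 28.6% lower in knockout. The balance of the 2 directions depended on the scaling: 5266 genes were higher and 4374 lower, against 4476 higher and 5030 lower with equal library totals and 4304 higher and 4575 lower in edgeR.

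Against that background all 10 genes passed the limma threshold, Spp1 after passing the filter through control only. The calls of Itgb1 and Itgav did not hold in every alternative, as given beside them below. Those of Cd44, Itgb5 and Itga4 did not hold in a test against a 1.2-fold change. Cd44, Itgav, Itgb5, Itga4 and Itgb1 rose by small amounts, and Spp1, Itga8, Itga5, Itgb3 and Itga9 fell. No value of any of the 10 in a knockout library lay within the range of the control libraries, where 67.1% of all tested genes had groups that did not overlap. The median log2 change of the 10 was -0.15, against 0.03 over all tested genes. This median counts Spp1, the gene knocked out. Without it, the middle value of the 9 receptor genes was that of Itgb1, 0.08. Spp1, Itga8 and Itga5 fell by more than 2-fold, as did 5.46% of tested genes, and none of the 10 rose by 2-fold, as 1.63% did.

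**Figure D1:**
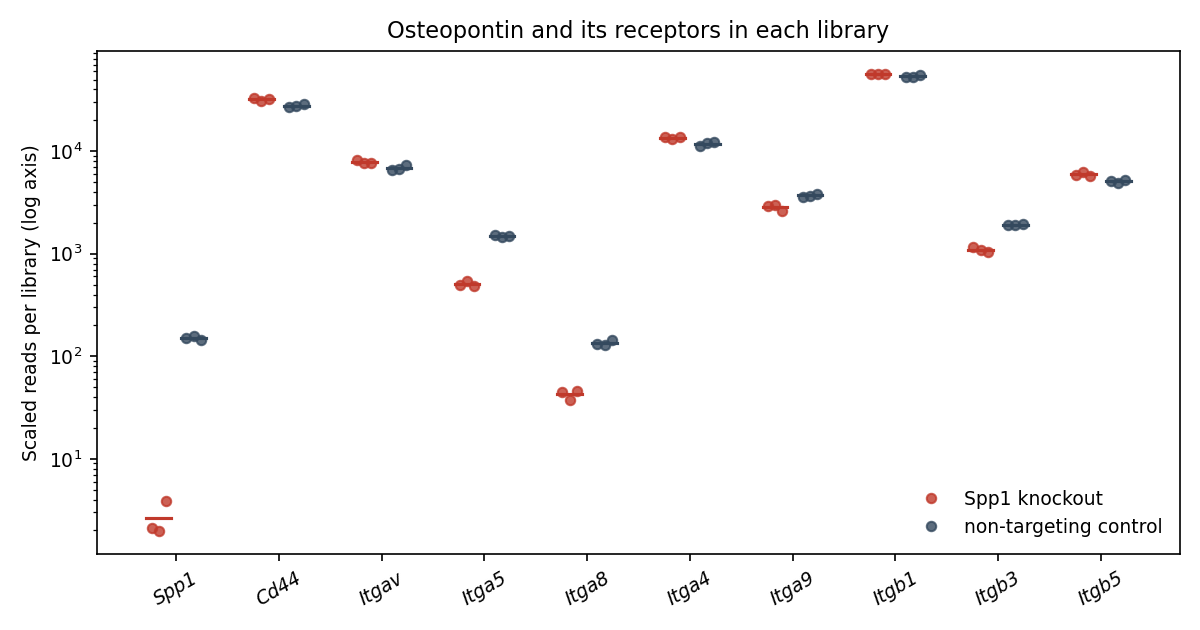
Scaled reads of the 10 genes in each library on a log axis, the 3 Spp1 knockout libraries in red to the left of the 3 non-targeting control libraries in dark blue, with a bar at each group's mean. Within every gene the groups are apart, by far the most in Spp1, where knockout libraries sit between 1.98 and 3.90 and control libraries between 145 and 156.

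The ligand gene itself was nearly without reads in knockout. Spp1 (ENSMUSG00000029304.14, mm10 chromosome 5, 104435118 to 104441050, plus strand) stood at 2.09, 1.98 and 3.90 scaled reads in knockout 1 to 3 and at 149, 156 and 145 in control 1 to 3. Taking the smallest value of each column as 1 read, these values stand for 8 reads in the 3 knockout libraries together and 496 in the 3 control libraries. The read ratio of knockout to control was 0.0178 (exact 95% binomial interval 0.00765 to 0.0354, counting error only), and the log2 change was -5.41 ± 0.25 (SE). Spp1 is the gene knocked out and passed the filter on low values through control only, so its limma call is description only. Without knockout 2, where the recovery of whole reads was not accepted, 6 knockout reads gave a ratio of 0.0202 (0.00737 to 0.0442), an alternative chosen after seeing the data. Only 0.0784% of tested genes had a larger change in either direction. The predicted gene Gm42793, on the same strand, overlaps 18.8% of the exon length of Spp1, so reads of the 2 cannot be told apart there.

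Spp1 was a weakly read gene even in control. Per kilobase of exon it reached 91.2 ± 3.56 scaled reads in control (SD, n = 3), above 29.7% of tested genes, and 1.61 ± 0.656 in knockout, above 1.17%. Among the 10 genes it ranked lowest per kilobase in knockout and second lowest in control, above Itga8. With predicted gene models left out, genes with the most similar profile over the 6 libraries were Thrb, Cpa6 and Bche. Their root-mean-square differences were 0.37, 0.39 and 0.39 on the log2 scale after centring. Cpa6 and Bche lay under 10 in every knockout library and, like Spp1, passed the filter through control only. With 2 groups of 3, this likeness is one of group difference and level of spread. Thrb, a thyroid hormone receptor gene, had 8.37, 17.8 and 18.5 scaled reads in knockout and 478, 484 and 517 in control.

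Cd44 was among the most abundant receptors and rose slightly. The gene (chromosome 2, 102811141 to 102901665, minus strand) had 32825, 31089.8 and 32216 scaled reads in knockout and 26938, 27314 and 28721 in control. All 3 knockout libraries were above all 3 control libraries, by at least 2369 scaled reads. The log2 change was 0.21 ± 0.03 (SE, limma adjusted p = 4.47e-05), a 1.16-fold higher level, and 55.8% of tested genes changed by more. Per kilobase Cd44 lay above 94.95% of tested genes in knockout and 94.0% in control. The table counts the gene as a whole, so the standard and variant forms of CD44, which differ in exon use, were not analysed here.

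The alpha subunits that bind the RGD motif did not move together: Itgav rose, and Itga5 and Itga8 fell. Itgav encodes alpha v, which pairs with several beta subunits to form the vitronectin-type receptors. The gene (chromosome 2, 83724397 to 83806916, plus strand) had 8118, 7743 and 7659 scaled reads in knockout and 6536, 6767 and 7286 in control, or 0.19 ± 0.04 higher in log2 terms (SE, limma adjusted p = 0.00066). Net of the median of its neighbours on the chromosome this call was lost (0.09, adjusted p = 0.0538). The groups were apart by 372 scaled reads, the distance between knockout 3 and control 3. Gm13684, on the other strand and not among the listed genes, overlaps 5.90% of the exon length of Itgav.

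Itga5 encodes alpha 5, which with beta 1 forms the main fibronectin receptor. The gene (chromosome 15, 103344286 to 103366763, minus strand) stood at 491, 536 and 479 scaled reads in knockout and at 1515, 1467 and 1499 in control. All 3 knockout libraries lay below all 3 control libraries by at least 931 scaled reads, and the log2 change was -1.57 ± 0.06 (SE, limma adjusted p = 7.63e-12), a level 2.98-fold lower in knockout. Of the tested genes 3.09% changed by more.

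Itga8 encodes alpha 8, best known from smooth muscle and kidney, and was the least expressed receptor of the 9. The gene (chromosome 2, 12106632 to 12301922, minus strand) stood at 45.0, 37.6 and 45.9 scaled reads in knockout and at 132, 129 and 144 in control. Its log2 change was -1.64 ± 0.14 (SE, limma adjusted p = 9.41e-08), and the 95% interval of -1.94 to -1.33 holds the change of Itga5. Its level per kilobase lay above 5.81% of tested genes in knockout and 12.8% in control, so the change concerned a gene with few reads. E030013I19Rik, on the other strand, overlaps 5.05% of its exon length and is not among the listed genes.

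The promoters of the genes that fell by more than 2-fold are shown so that they can be compared by sequence. Each is the 300 bases from 250 before to 50 after the annotated start, from RefSeq on GRCm38.p6, 5′ to 3′ on the strand of the gene, and 9 of the 10 genes had an entry. Capitals mark letters that match, on either strand, TGANTCA (an AP-1 site, held by 7.81% of the 32851 promoter entries), CACGTG (an E-box, 7.15%), GGGCGG (a GC box, 35.7%) or TATAAA (13.6%). No marked matches overlap.
Spp1, chr5:104434861-104435160, plus strand: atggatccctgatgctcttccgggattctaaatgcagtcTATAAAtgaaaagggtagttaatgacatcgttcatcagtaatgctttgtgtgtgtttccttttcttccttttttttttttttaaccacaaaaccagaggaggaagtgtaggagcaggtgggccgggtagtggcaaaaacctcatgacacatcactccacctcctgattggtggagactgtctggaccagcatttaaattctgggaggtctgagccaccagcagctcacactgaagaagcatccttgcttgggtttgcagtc
Itga5, chr15:103366742-103367041, minus strand: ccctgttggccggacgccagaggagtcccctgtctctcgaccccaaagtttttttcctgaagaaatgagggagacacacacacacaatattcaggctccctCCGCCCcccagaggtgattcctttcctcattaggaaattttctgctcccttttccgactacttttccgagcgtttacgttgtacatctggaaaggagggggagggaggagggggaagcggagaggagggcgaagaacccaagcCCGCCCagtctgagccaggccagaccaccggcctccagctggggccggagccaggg
Itga8, chr2:12301895-12302194, minus strand: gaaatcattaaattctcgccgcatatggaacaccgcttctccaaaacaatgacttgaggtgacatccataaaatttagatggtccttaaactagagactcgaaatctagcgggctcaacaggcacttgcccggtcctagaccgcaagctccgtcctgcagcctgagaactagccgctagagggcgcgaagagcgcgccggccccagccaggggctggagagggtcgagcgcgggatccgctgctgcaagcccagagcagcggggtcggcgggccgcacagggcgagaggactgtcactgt

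The Spp1 window held 1 TATAAA and none of the other 3 motifs, the Itga5 window held 2 GC boxes and none of the others, and the Itga8 window held none of the 4. The share of G and C was 45.3% in the Spp1 window, 58.7% in that of Itga5 and 59.0% in that of Itga8. RefSeq lists a second entry for Spp1, which is not shown.

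The alpha subunits that bind the thrombin-exposed site also moved in opposite directions. Itga4 encodes alpha 4, which binds fibronectin and VCAM1 as well as osteopontin and is best known from leukocytes and neural crest. The gene (chromosome 2, 79255426 to 79333123, plus strand) had 13649, 13032 and 13792 scaled reads in knockout and 11275, 11889 and 12247 in control, or 0.19 ± 0.04 higher in log2 terms (SE, limma adjusted p = 0.000247). The groups were apart by 785 scaled reads. Cerkl, on the other strand, overlaps 8.04% of the exon length of Itga4, but its level was only 232 to 287 scaled reads in knockout and 377 to 404 in control.

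Itga9 encodes alpha 9, the closest relative of alpha 4, which also binds tenascin-C. The gene (chromosome 9, 118606690 to 118901003, plus strand) fell to 2889, 2986 and 2608 scaled reads in knockout, against 3582, 3685 and 3836 in control (log2 change -0.39 ± 0.05, SE, limma adjusted p = 4.64e-06). The 50 nearest tested genes on chromosome 9 had a median log2 change of -0.21. With the neighbours' median subtracted in each library, Itga9 stood at -0.18 ± 0.05 (limma adjusted p = 0.0029), less than the change before subtraction by over 1.5 times.

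The beta subunits split in the same way, with Itgb1 and Itgb5 slightly higher and Itgb3 lower. Itgb1 encodes beta 1, which pairs with all 5 of these alpha subunits, alpha v included, and was the most abundant of the 10 genes. The gene (chromosome 8, 128685654 to 128733200, plus strand) had 57104, 56959 and 56781 scaled reads in knockout and 52994, 53265 and 55087 in control, or 0.08 ± 0.03 higher in log2 terms (SE, limma adjusted p = 0.0196). This call was lost without knockout 1 or 2 or control 1 or 2 (limma adjusted p = 0.0708, 0.0562, 0.0559 and 0.0837). It was also lost with equal library totals (0.03, adjusted p = 0.308), with TMM rescaling (0.06, adjusted p = 0.0935) and in edgeR and DESeq2 on recovered reads of 5 libraries (0.05 and 0.06, adjusted p = 0.273 and 0.19).

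Itgb3 encodes beta 3, which with alpha v forms the classical osteopontin and vitronectin receptor and is linked to invasive growth of human melanoma. The gene (chromosome 11, 104608000 to 104670476, plus strand) stood at 1172, 1078 and 1041 scaled reads in knockout and at 1923, 1892 and 1967 in control. The groups were apart by 720 scaled reads, and the log2 change was -0.81 ± 0.05 (SE, limma adjusted p = 2.05e-09), a 1.76-fold lower level in knockout. Of the tested genes 10.1% changed by more.

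Itgb5 encodes beta 5, a further partner of alpha v. The gene (chromosome 16, 33829665 to 33949338, plus strand) had 5924, 6239.9 and 5725 scaled reads in knockout and 5137, 4875 and 5237 in control, or 0.23 ± 0.04 higher in log2 terms (SE, limma adjusted p = 0.000112). This was the largest rise of the 10, and 52.7% of tested genes changed by more. When the test asked for more than a 1.2-fold change, none of the 5 risen genes passed, and Spp1, Itga8, Itga5, Itgb3 and Itga9 did, as did 14.2% of tested genes in the lower direction.

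**Figure D2:**
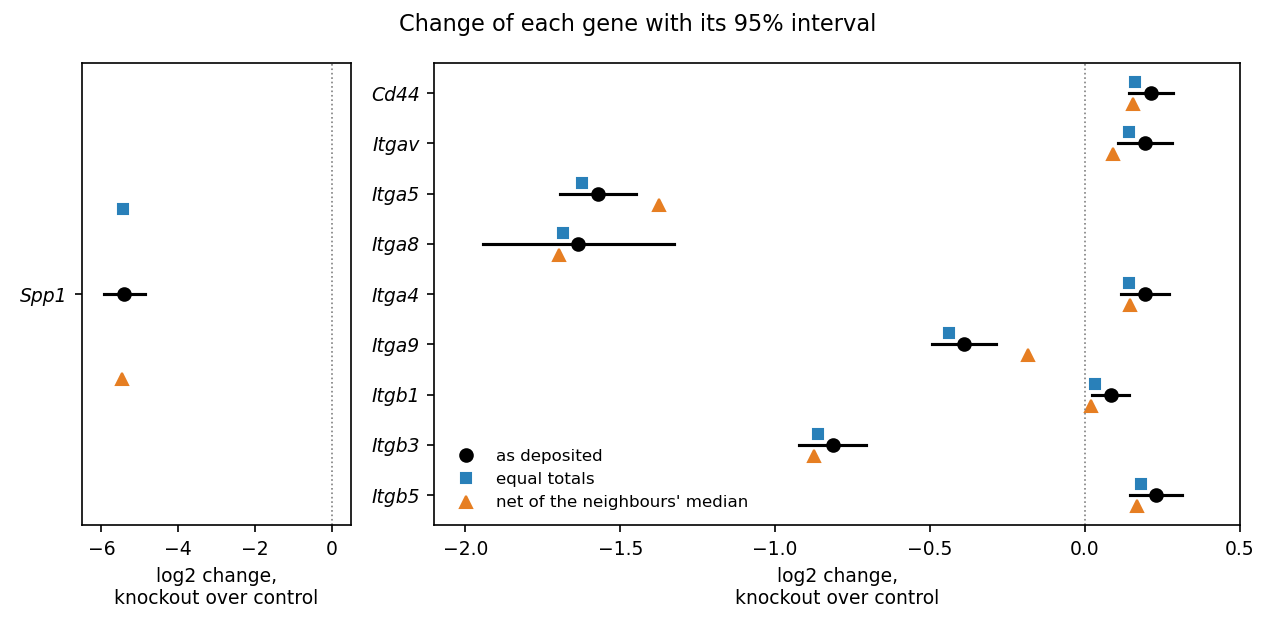
The log2 change of each gene, knockout over control, with its 95% interval in limma (black), the change with every library scaled to the same total (blue squares) and the change net of the neighbours' median (orange triangles); Spp1 has its own axis. Itgb1 lies at 0.03 with equal totals and at 0.02 net of the neighbours, and Itga9 moves to -0.18 net of the neighbours, while Itga5, Itga8 and Itgb3 stay below -0.7 in all 3.

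The change of each gene was also set beside that of its neighbours on the chromosome. The median log2 change of up to 25 tested genes on each side lay between -0.21 for Itga9 and 0.12 for Itgav. Net of it, Itgb1 stood at 0.02 ± 0.03 and did not pass (limma adjusted p = 0.63), nor did Itgav. Itga5 stood at -1.37 ± 0.06, Itga8 at -1.70 ± 0.15 and Itgb3 at -0.88 ± 0.05, and all 3 passed.

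Itga5 lies near the end of chromosome 15, with 27 tested neighbours in all and 2 beyond it. Both of those fell as well: Nckap1l, a haematopoietic actin regulator, by 1.89 and Pde1b, a phosphodiesterase, by 1.81 on the log2 scale. Both were chosen after their values were seen. On the other side the nearest tested gene, Zfp385a, rose by 0.97, and Copz1 next to it fell by 0.35. The part of position in the change of Itga5 was not tested.

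**Figure D3:**
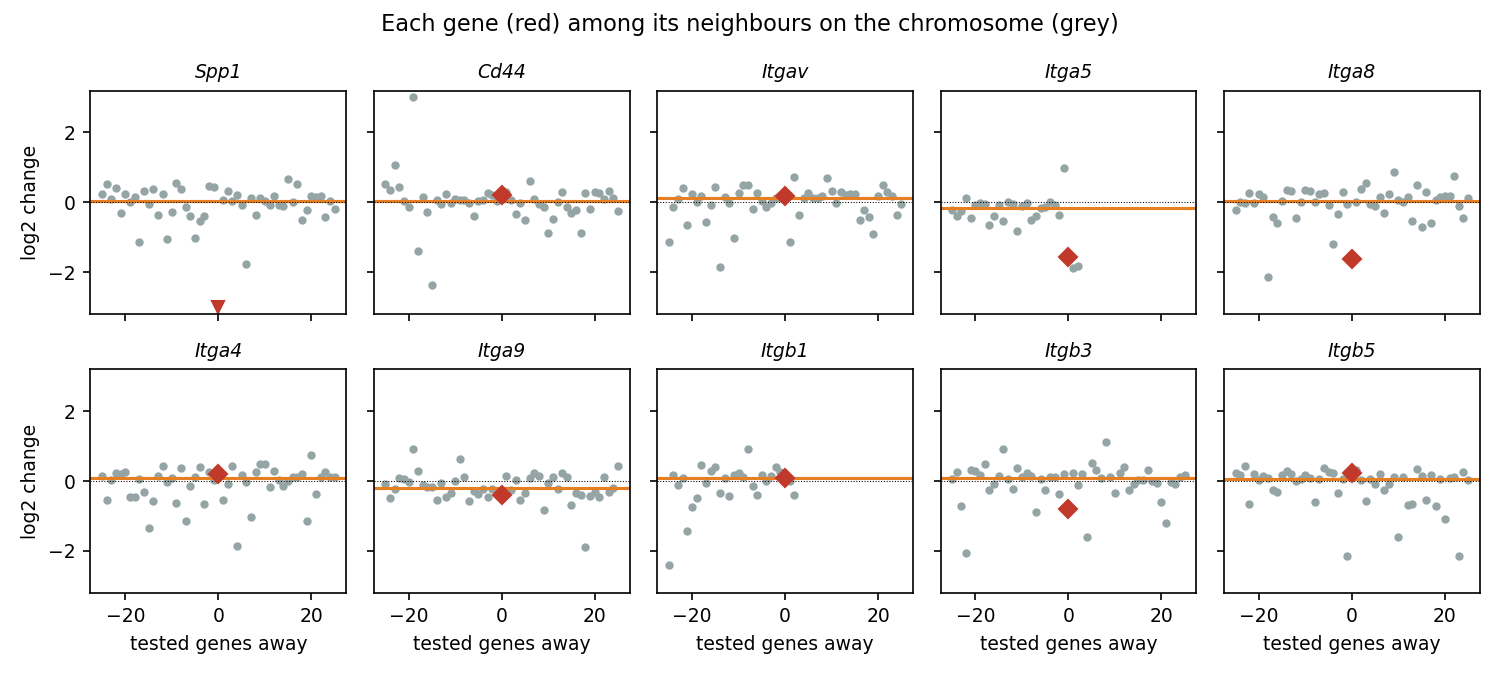
Log2 change, knockout over control, of each of the 10 genes (red) and of up to 25 tested genes on each side in chromosome order (grey), with the neighbours' median in orange. Values beyond 3 in either direction are drawn at 3, which applies to Spp1 and to 1 neighbour of Cd44; the neighbours' median is lowest around Itga9, and the 2 genes after Itga5 lie near -1.8.

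Levels of different subunits were compared per kilobase of exon. The order was the same in both groups for the 8 highest genes: Itgb1, Cd44, Itgb5, Itga4, Itgav, Itga9, Itgb3 and Itga5. Neighbours in this order did not overlap across the 3 libraries of a group. Itgb1 stood at 13954 ± 39.7 scaled reads per kilobase in knockout and 13179 ± 279 in control (SD, n = 3 each). The summed level of the 3 beta genes was 15819 ± 103 in knockout and 14936 ± 320.3 in control, and that of the 5 alpha genes 2170.1 ± 38.0 in knockout and 2286 ± 85.9 in control. RNA levels per kilobase do not give the number of receptor pairs on the cell.

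Among the 5 alpha subunits followed here the alpha 5 gene held a lower share in every knockout library than in any control library. Other alpha genes, Itga6 among them, are not in the sum. Itga5 made up 4.49%, 5.04% and 4.54% of the summed alpha level in knockout and 13.9%, 13.1% and 12.8% in control. Itga4 made up 44.5% ± 1.44 in knockout and 36.9% ± 0.419 in control, and Itgav 33.6% ± 0.458 in knockout and 27.9% ± 0.524 in control (SD, n = 3 each). Itga9 held 16.9% ± 1.09 in knockout and 21.1% ± 0.0656 in control. Itga8 held 0.268% ± 0.0279 in knockout and 0.8002% ± 0.0283 in control. The RGD-binding alpha genes together held 38.6% ± 0.42 in knockout and 42.0% ± 0.409 in control. These shares are descriptions, with no test.

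Among the 3 beta subunits followed here the share of Itgb1 differed by less than the spread between libraries. It was 88.2% ± 0.406 in knockout and 88.2% ± 0.266 in control. Itgb5 held 10.6% ± 0.401 in knockout and 9.58% ± 0.251 in control. Itgb3 held 1.25%, 1.15% and 1.12% in knockout and 2.21%, 2.17% and 2.18% in control.

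**Figure D4:**
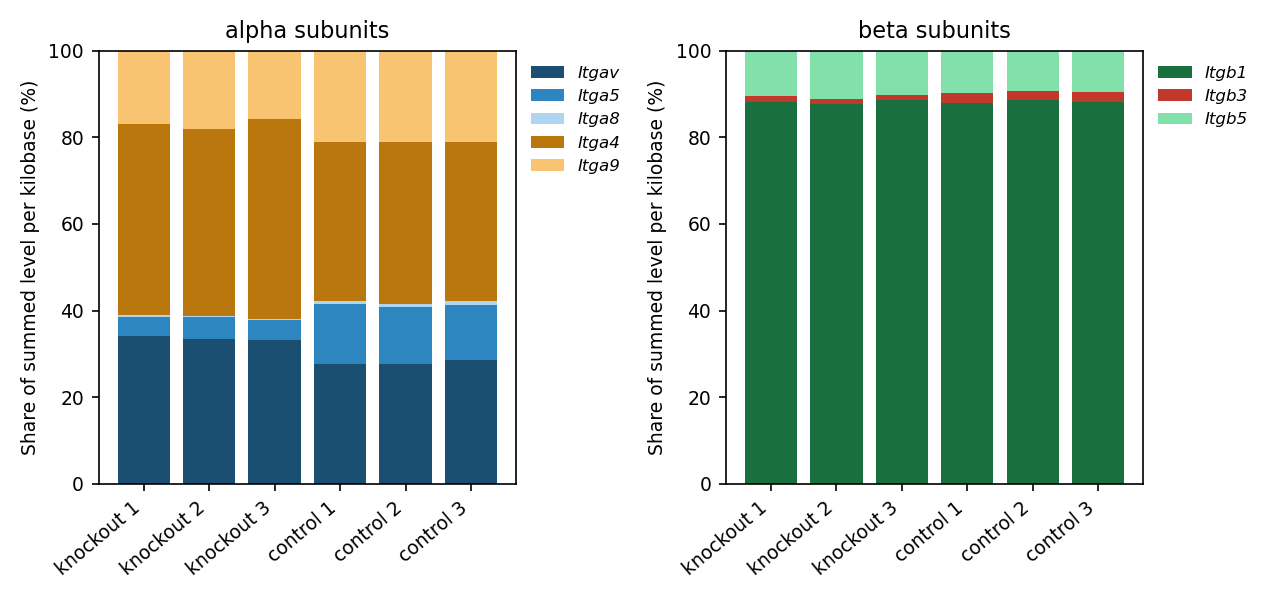
Share of each of the 5 alpha genes (left) and 3 beta genes (right), in percent, for the 3 knockout and the 3 control libraries. Each share is of the summed level per kilobase of these 5 or these 3 genes only. The Itga5 band is 4.49% to 5.04% in knockout and 12.8% to 13.9% in control, and the Itgb1 band is near 88% in every library.

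The other integrin subunits, counted for comparison, had 10 tested members, of which 2 rose and 5 fell (median log2 change -0.30). Over all tested genes 34.4% rose and 28.6% fell, and the list itself was not tested. Itgb8, a further partner of alpha v that binds latent TGF-beta, rose to 131, 112 and 121 scaled reads in knockout, against 44.9, 44.7 and 61.0 in control (log2 change 1.27 ± 0.16, SE). Itga1, a collagen receptor subunit, stood at 0.12 ± 0.05 (limma adjusted p = 0.0388), a call lost without knockout 2, knockout 3, control 1 or control 3 (limma adjusted p = 0.0813, 0.122, 0.127 and 0.068). It was also lost with TMM rescaling, equal totals and the neighbours' median subtracted (limma adjusted p = 0.0837, 0.213 and 0.582), and in edgeR and DESeq2 (adjusted p = 0.234 and 0.28). Itgb2, the leukocyte beta subunit, fell to 11.5, 9.89 and 7.81 in knockout, against 52.2, 33.1 and 34.2 in control. Itga2, another collagen receptor subunit, fell by 1.44 on the log2 scale, to 13.6, 16.8 and 26.4 in knockout. Its control values were 46.0, 53.6 and 54.5, so both genes were weakly read. For Itgb2, knockout 2 and 3 lay under the minimum of 10, so it passed the filter on low values only with the control libraries. The laminin receptor subunit Itga6, the most abundant of this list, did not pass, at 19373 ± 343 scaled reads in knockout and 18483 ± 895 in control (SD, n = 3 each), but passed without control 3 (log2 change 0.10, limma adjusted p = 0.00684).

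Of the integrin activators and adaptors 25 were tested, and 14 rose and 10 fell (median log2 change 0.24). The shares over all tested genes were 34.4% higher and 28.6% lower, and the list itself was not tested. Tns1, a tensin that links beta tails to actin, rose to 2174, 2125 and 1980.3 scaled reads in knockout, against 938, 970.1 and 1037 in control (log2 change 1.09 ± 0.05, SE). Dab2, an endocytic adaptor that binds beta tails, rose by 0.97 on the log2 scale. Fermt3, the kindlin of blood cells, fell to 6.28, 19.8 and 10.7 in knockout, against 29.2, 30.4 and 26.0 in control, and Apbb1ip, the RIAM adaptor that recruits talin, fell to 7.32, 4.95 and 1.95 in knockout, against 91.9, 83.2 and 85.4 in control. Apbb1ip lay under the minimum of 10 in every knockout library, so it passed the filter on low values through control only.

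Itgb2, Fermt3 and Apbb1ip are best known from blood cells, and the macrophage marker Cd68 fell with them. Itgb2, Fermt3 and Apbb1ip each had values under 10 in knockout and passed the filter on low values only with the control libraries. Their calls are description only. Of 6 macrophage markers 2 were listed, with summed levels of 45.0 to 56.6 scaled reads in knockout and 101 to 119 in control. Cd68 made up most of this and fell by 1.14 on the log2 scale (limma adjusted p = 5.74e-06). Csf1r did not pass the filter on low values and overlapped between the groups, with 1.05, 1.98 and 5.86 in knockout and 1.04, 1.79 and 4.07 in control, and Ptprc, Adgre1, Itgam and Fcgr1 were not among the listed genes. Of 4 fibroblast markers 2 were listed, at 130 to 150 in knockout and 210 to 241 in control, and of 4 endothelial markers 1 was listed, at 6.83 to 8.37 in knockout and 8.05 to 8.36 in control. The part of other cells in these changes was not tested.

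Of the other ligands of the same integrins, 13 were tested, and 3 rose, 7 fell and 3 did not pass, with a median log2 change of -0.25. Among all tested genes 34.4% rose and 28.6% fell, and the list itself was not tested. Edil3, an RGD protein bound by alpha v integrins, fell to 607, 561 and 600.2 scaled reads in knockout, against 1211, 1093.5 and 1199 in control. Npnt, nephronectin, the main ligand of alpha 8 in kidney development, fell to 723, 774 and 627 in knockout, against 1309.7, 1279 and 1314 in control. Nid1, a basement membrane linker, and Cyr61, a matricellular protein, rose by 0.63 and 0.59 on the log2 scale.

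Of the enzymes that modify or cleave osteopontin, 3 of 10 were tested. Fam20c, the kinase that phosphorylates osteopontin in the secretory pathway, had 1326, 1453 and 1302 scaled reads in knockout and 1162, 1120.3 and 1148 in control, or 0.25 ± 0.05 higher in log2 terms (SE, limma adjusted p = 0.000621), and 0.16 higher in edgeR (adjusted p = 0.0166). Tgm2, a transglutaminase that crosslinks osteopontin, fell to 182, 182 and 144 in knockout, against 704, 766 and 759 in control. Other genes overlap 21.8% of its exon length, so its value is uncertain. Mmp2, a gelatinase, rose by 0.46 on the log2 scale. The proteins most closely related to osteopontin, encoded by Ibsp, Dmp1, Dspp and Mepe, were not among the listed genes.

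Of the hyaluronan and CD44 partners, 15 were tested, and 6 rose, 7 fell and 2 did not pass, with a median log2 change of -0.07. All tested genes had shares of 34.4% higher and 28.6% lower, and the list itself was not tested. Ezr, or ezrin, which ties the CD44 tail to actin, rose to 7061, 6988 and 6513 scaled reads in knockout, against 3732, 3473 and 3811 in control (log2 change 0.90 ± 0.04, SE). Net of the neighbours' median its log2 change was 0.46 ± 0.04 (limma adjusted p = 1.8e-08). The hyaluronan synthase genes parted: Has2 fell to 26.2, 23.7 and 30.3 in knockout, against 114, 73.3 and 83.0 in control, and Has3 rose to 26.2, 33.6 and 37.1 in knockout, against 14.6, 11.6 and 24.4 in control. The call of Has3 was lost in DESeq2 (adjusted p = 0.116). Ank3, an ankyrin of the membrane skeleton, fell by 2.47 on the log2 scale.

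**Figure D5:**
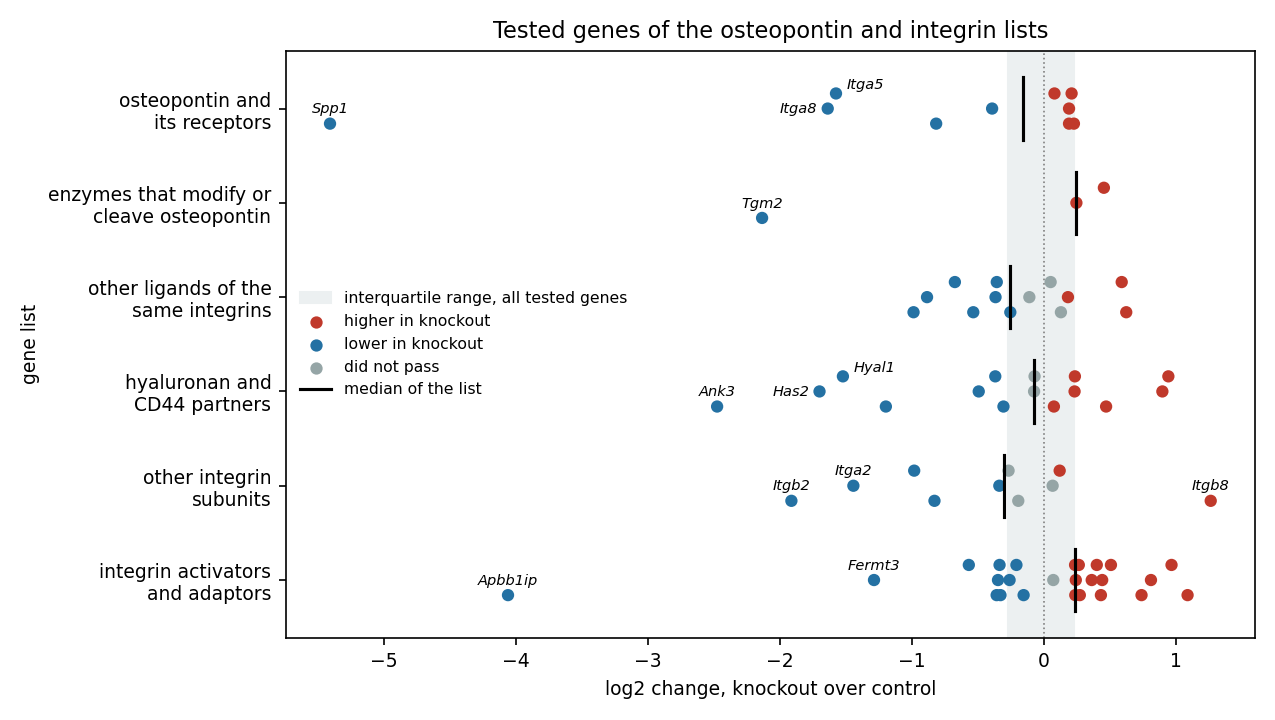
Log2 change, knockout over control, of each tested gene in the 10 osteopontin and receptor genes and in 5 related lists; red points rose, blue points fell and grey points did not pass, black lines are list medians, and the pale band is the interquartile range over all tested genes. Genes beyond 1.2 in either direction are labelled, with Itgb8 the only one of them that rose.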

How the data were processed

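The 10 genes and all gene lists were chosen with earlier results of these data known. The authors deposited a signal table in which each library's read counts had been scaled by a DESeq size factor, per the series' design text. Per the submitters' processing notes the build was mm10 and the tools included HTSeq 0.5.3, STAR 2.5.0a and cutadapt 1.6, with no role stated. The strand setting, filters and annotation release are not given in the sources. All values were whole multiples of their column's smallest value (100% within 0.001), taken as 1 read. No listed gene has fewer than 1 read in a library, so genes absent from any library are not analysed here. A check of units accepted this for 5 libraries and not for knockout 2, which was left out of edgeR and DESeq2. Its reads enter the read ratio of Spp1, given also without them.

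Values were tested as log2(value + 1) for genes with at least 10 in at least 3 libraries, in limma 3.58.1 (R 4.3.3, trended and robust variance, two-sided, Benjamini-Hochberg over all tested genes, threshold 0.05). Log2 changes on this scale understate those of weakly read genes. Exact permutation of 3 and 3 libraries gives no p below 0.1 and was not used. On simulated data limma recovered 70% of 50 genes changed 1.2-fold and 100% of 50 changed 4-fold. The simulation changed few of its 15287 genes and gave all of them the same spread beyond counting error. In the data 63.0% of genes passed the threshold, so these shares do not give the recovery for the 10 genes. Alternatives used edgeR 4.0.16, DESeq2 1.42.0, other scalings, pseudocounts and filters, and neighbouring genes. Exon lengths (union of exons) and positions were read from GENCODE M21, whose assembly GRCm38 is that of mm10. Genes were named by rule: the 10, up to 2 risen and 2 fallen per list with the largest changes, and the 3 profiles closest to Spp1. Predicted gene models were left out of these profiles.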

Additional observations from a re-analysis of the deposited data

How the results depend on the processing

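Spp1, Itga5, Itga8, Itgb3 and Itga9 kept their direction and passed the threshold in all 18 alternatives, with log2 changes of -5.66 to -4.35, -1.66 to -1.37, -1.70 to -1.55, -0.88 to -0.78 and -0.47 to -0.18, and no gene of the 10 reversed. For Spp1, the gene knocked out, these calls are description only. Against a change of 1.2-fold, the log2 changes stay as they were at 0.21 for Cd44, 0.19 for Itgav, 0.23 for Itgb5, 0.19 for Itga4 and 0.083 for Itgb1, but none of these passed, since the test asks for more. Net of the neighbours' median, Itgav at 0.090 and Itgb1 at 0.020 did not pass. Itgb1 also did not pass with TMM rescaling (0.062), equal totals (0.034), no trend or robust estimation (0.083), edgeR (0.046) or DESeq2 (0.058), nor without knockout 1 or 2 or control 1 or 2 (log2 change 0.072 to 0.100 over all 6 single libraries left out). The cause was not tested.

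Against 1.2-fold, 1581 genes were higher and 2168 lower in place of 5266 and 4374. On that test 0 of the 10 were higher, and net of the neighbours' median 3 were higher in place of 5. Net of the neighbours' median, 4448 of all 15235 genes tested were higher and 4298 lower. Against 1.2-fold 0 enzymes acting on osteopontin were higher, 4 other ligands were lower, 2 hyaluronan and CD44 partners were higher and 3 lower, 9 activators and adaptors were higher and 4 lower, and 1 melanocyte marker was higher. Of other integrin subunits 1 was higher in place of 2 with TMM rescaling, equal totals, the 1.2-fold test, the replicate block, the neighbours' median, edgeR and DESeq2, and 1 to 2 without single libraries. With a minimum of 50, 2 of them were lower in place of 5, since fewer were tested. At that minimum 5100 of all 12593 genes tested were higher and 3859 lower. Net of the neighbours' median 6 activators and adaptors and 2 melanocyte markers were lower in place of 10 and 1. Among all 15235 genes tested there, 4298 were lower.

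With the longest transcript as gene length, the shares in knockout and control were 36.8% and 31.7% for Itgav, 3.77% and 11.0% for Itga5, 13.4% and 17.2% for Itga9 and 40.9% and 43.5% for the RGD-binding alpha genes. In control they were 39.4% for Itga4, 0.755% for Itga8 and 2.09% for Itgb3. In control Itga5 and Itgb3 then overlapped in level.

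With the replicate number as a block in the fit, 5058 genes were higher and 4231 lower, and no call of the 10 changed. Deviations of libraries with the same number did not go together (r = -0.11, -0.24 and -0.04 across genes), so the numbers were not treated as pairs. Another scaling moved the median log2 change of all genes by less than 0.1, from 0.03 to -0.02 at most. The depth limits Spp1 most, where 8 reads carry the knockout value.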
